A study of Mus musculus with 11 samples.

Results

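Immediate early genes are genes whose transcripts appear within minutes of a stimulus, without new protein synthesis, and most of whose mRNAs are short-lived. In beta cells they are known to respond to glucose, membrane depolarisation, calcium entry and cAMP. The signals reach them through MAP kinases, calcium and calmodulin-dependent kinases and protein kinase A, which act on factors such as SRF with its ELK partners and CREB. Their products are mainly transcription factors that set the next wave of gene expression, together with phosphatases that switch the kinases off again. The 10 genes described here were the rows of the deposited count table carrying the names Egr1, Egr3, Fos, Fosb, Jun, Junb, Ier2, Nr4a1, Nr4a2 and Dusp1, of 32285 genes in all. After the filter on low counts 9 of the 10 were tested, among 15093 genes. Egr3 was left out by that filter, with 2 to 10 counts in each library.

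RNA was sequenced from mouse pancreatic islets, the hormone-secreting cell clusters of the pancreas. The donors, aged 16 weeks, were mice labelled βZKO_Mip, a beta cell knockout of Zzef1, a gene encoding a large zinc-finger protein, and their littermate controls. All mice, controls included, had been fed a high-fat diet for 4 weeks. Treatment lasted 24 h, with 10 µM azoramide, a compound reported to modulate protein folding and the unfolded protein response, or with the solvent DMSO, and each sample drew on at least 3 mice of the same genotype. The 11 libraries formed 4 groups: labelled knockout with azoramide (n = 3), labelled knockout with DMSO (n = 2), control with azoramide (n = 3) and control with DMSO (n = 3). The sources used here give neither the driver and deleted exons behind βZKO_Mip nor whether the azoramide and DMSO samples of a genotype share mice. A single time point of 24 h was sampled, which is long after the usual peak of an immediate early response, so the values are levels at the end of the treatment.

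Zzef1 was read in every library. Its level was 72.8 ± 4.5 CPM in labelled-knockout islets and 66.6 ± 2.0 CPM in control islets with azoramide (SD, n = 3 each). With DMSO it was 81.5 ± 2.9 CPM in labelled-knockout islets (n = 2) and 97.2 ± 12.2 CPM in control islets (n = 3). CPM is the count scaled to library size, after TMM normalization. The knockout label thus went with a higher level under azoramide and a lower level under DMSO, and neither difference passed the test (edgeR adjusted p = 0.968 and 0.999). Loss of a few exons need not lower the count of a gene. The term labelled knockout is therefore used throughout, and directions between genotypes rest on that label.

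Library totals ran from 16832800 to 19501813 counts. Beta cell markers were high in every library, and alpha, delta, endothelial, macrophage and acinar markers were also read, so the tissue label was met with other cell types present. In such bulk samples fewer cells of a type and less RNA per cell cannot be told apart. The libraries differed along with treatment in several ways. Mitochondrial transcripts took 7.16 to 8.51% of counts in the azoramide libraries of both genotypes and 5.17 to 5.50% in the DMSO libraries. The summed beta cell markers were 141132 to 174977 CPM with azoramide and 130209 to 133401 CPM with DMSO in labelled-knockout islets, and 152242 to 192981 and 139961 to 142607 CPM in control islets, with no overlap in either. The single beta cell markers went both ways. Of 10 tested, 3 rose and 4 fell in labelled-knockout islets (20% and 19.8% of all genes). In control islets 4 rose and 4 fell (19.3% and 19.8% of all genes). The summed alpha cell and macrophage markers and the PP cell marker were also higher, and the endothelial markers lower, with azoramide and without overlap between libraries in either genotype. For macrophages, all 9 markers were in the table and none was at 0 throughout. Their sum was 66.9 to 123.7 CPM with azoramide against 53.1 CPM in both DMSO libraries of labelled-knockout islets, and 66.5 to 83.3 against 47.5 to 61.7 CPM in control islets. Short genes were also higher than long ones with azoramide. Genes of up to 2306 exonic bases had a median log2 difference of 0.29 in labelled-knockout and 0.28 in control islets, and genes of at least 7415 bases a median of -0.16 and -0.20. Among the tested members only Ier2 (1522 bases) and Junb (2301 bases) fell in the shortest class and none in the longest. The part of these differences in the results below was not tested.

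On the second principal component, labelled-knockout azoramide library 3 and control DMSO library 2 lay at opposite ends, apart from their groups. This touched the members directly. In control DMSO library 2, 8 of the 9 tested members were above their group mean, and in control DMSO library 3 all 9 were below it. Results that rest on these libraries are given with and without them.

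The proximal promoters are shown for the AP-1 subunits Fos and Junb, for Nr4a1 and for Dusp1, as examples of the families measured. RefSeq promoters (GRCm38.p6) were matched for 7 of the 10 genes, namely Fos, Fosb, Jun, Junb, Nr4a1, Nr4a2 and Dusp1. The bases run 5′ to 3′ on the gene's strand and end 1 base before the annotated start. Capitals mark the cAMP response element TGACGTCA, its core TGACG, the related TGCGTCA, the EGR motif GCGNGGGCG and the TATA motif TATAAA, each on either strand. The core lies within the element on both strands and within the complement of TGCGTCA.
Fos, chr12:85473690-85473889, plus strand: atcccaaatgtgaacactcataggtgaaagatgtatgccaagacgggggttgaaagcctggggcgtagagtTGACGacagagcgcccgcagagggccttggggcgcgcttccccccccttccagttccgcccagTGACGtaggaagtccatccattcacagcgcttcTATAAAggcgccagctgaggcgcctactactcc
Junb, chr8:84978749-84978898, minus strand: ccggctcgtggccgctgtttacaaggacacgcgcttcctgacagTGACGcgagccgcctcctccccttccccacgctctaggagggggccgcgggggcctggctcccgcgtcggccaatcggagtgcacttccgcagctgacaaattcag
Nr4a1, chr15:101266596-101266845, plus strand: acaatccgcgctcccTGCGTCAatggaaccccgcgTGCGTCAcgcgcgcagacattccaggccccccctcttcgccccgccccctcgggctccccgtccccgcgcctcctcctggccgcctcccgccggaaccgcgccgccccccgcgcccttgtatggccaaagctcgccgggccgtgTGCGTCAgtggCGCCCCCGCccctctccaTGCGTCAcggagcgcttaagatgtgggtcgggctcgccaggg
Dusp1, chr17:26508473-26508672, minus strand: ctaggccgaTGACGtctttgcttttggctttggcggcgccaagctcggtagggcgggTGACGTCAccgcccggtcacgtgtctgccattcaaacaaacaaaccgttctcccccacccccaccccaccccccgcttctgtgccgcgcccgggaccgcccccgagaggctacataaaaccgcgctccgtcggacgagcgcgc
Over the 250 bases before each start, the full element TGACGTCA was in 1.55% of 32851 RefSeq promoters and in 1 of the 7 matched members, Dusp1, at 143 to 136 bases before the start. The core TGACG was in 17.8% of promoters and in 6 of the 7, Jun being the exception. TGCGTCA was in 1.75% of promoters and in Fosb and Nr4a1, with 4 copies in Nr4a1. The EGR motif was in 4.7% of promoters and in Fosb, Nr4a1 and Nr4a2, and TATAAA was in 12.4% and in Fos and Nr4a2. The AP-1 motif TGANTCA (6.75% of promoters) and the CArG box, the SRF motif (1.47%), had no match in the 7 windows. A match describes letters only, and no match says only that the letters are not in this window.

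Per kilobase of exon, the scale that allows genes to be compared, Junb had the highest level of the 10 with a median of 26.3 CPM per kilobase over the 11 libraries. Jun (11.4), Egr1 (11.3), Dusp1 (9.58), Fos (9.12), Ier2 (8.87), Nr4a2 (8.68) and Nr4a1 (7.19) followed within a narrow range. Fosb (0.192) and Egr3 (0.088) were far below the others. Junb shares 173 exonic bases with Prdx2 and Jun shares 232 with the antisense gene Junos, both on the opposite strand, and no source used here states the strand setting of the counting, so reads of these genes and their neighbours cannot be told apart there. Dusp1 shares 11 bases with Ergic1.

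Egr1 rose with azoramide in islets of both genotypes, by 1.13 on the log2 scale in labelled-knockout and by 1.46 in control islets. Dusp1 rose by 0.37 in labelled-knockout islets. Fos, Ier2 and Nr4a2 had differences of 0.64 to 1.09 in labelled-knockout islets without passing the test. In labelled-knockout islets 2 of the 9 tested members rose (20% of all genes tested rose), none fell, and all 9 differences were positive. In control islets 1 of 9 rose (19.3% of all genes), none fell, and 8 of 9 were positive. Counts of 2 and 1 in 9 are near these background shares. Taken by overlap alone, 7 of the 9 members had every azoramide library above every DMSO library in labelled-knockout islets (30.2% of all genes did) and 1 of 9 in control islets (23.8%). The median log2 difference of the members was 0.46 in labelled-knockout and 0.21 in control islets, beside medians over all genes of -0.0032 and -0.02.

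Egr1, a zinc-finger transcription factor that binds GC-rich promoters and is induced by glucose in beta cells, had the largest difference of the members in either genotype. It stood at 50.8, 64.8 and 72.1 CPM in labelled-knockout islets with azoramide, against 22.9 and 34.1 CPM with DMSO. In control islets the azoramide libraries held 72.0, 76.2 and 58.5 CPM, against 22.7, 34.5 and 17.8 CPM with DMSO. Every azoramide library lay above every DMSO library, whatever the genotype, while within a treatment the genotypes overlapped. The log2 difference was 1.13 in labelled-knockout islets (SE 0.31, 95% interval 0.41 to 1.85, edgeR adjusted p = 0.0218), a 2.19-fold change. In control islets it was 1.46 (SE 0.27, interval 0.82 to 2.10, edgeR adjusted p = 0.00398), a 2.75-fold change. The call in control islets held under all 20 alternatives, with values of 1.26 to 1.77. That in labelled-knockout islets was lost without labelled-knockout azoramide library 2 (1.11, adjusted p = 0.0556), azoramide library 3 (1.02, adjusted p = 0.0537) or DMSO library 1 (0.88, adjusted p = 0.141). Egr3, a close relative of Egr1 that shares its DNA-binding motif, had 8, 2 and 9 counts in labelled-knockout islets with azoramide and 8 and 4 with DMSO. In control islets it had 4, 4 and 2 counts with azoramide and 10, 10 and 7 with DMSO. Every azoramide library was thus below every DMSO library in control islets, the opposite direction to Egr1, at counts near the floor. The filter on low counts kept Egr3 out of the main fit.

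**Figure D1:**
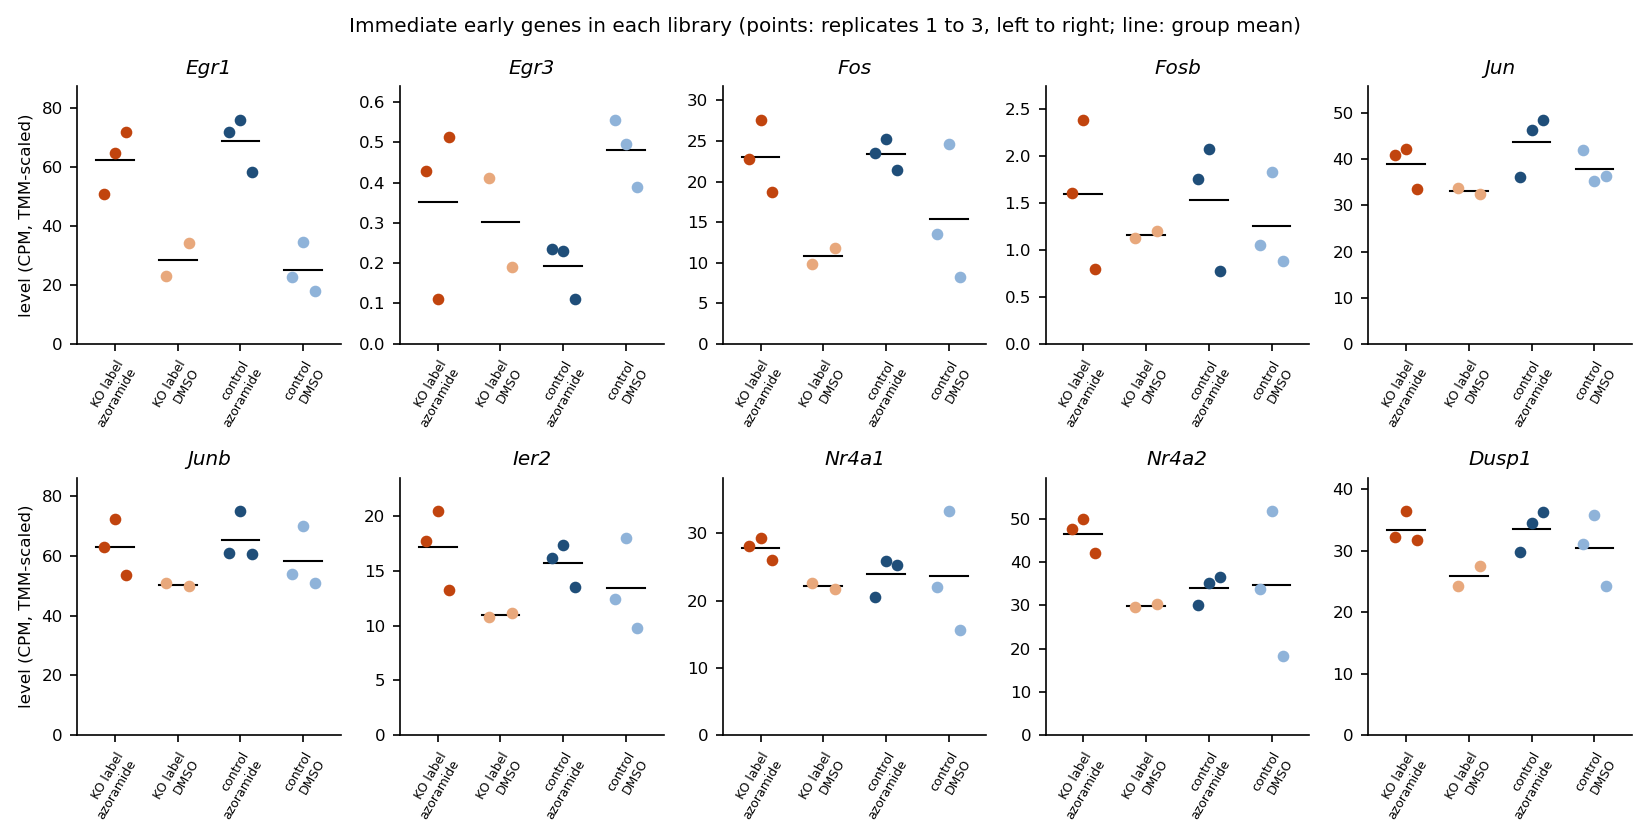
Level of each gene in each library, in TMM-scaled CPM (linear axes from 0, with a scale of its own for each gene). Points are libraries and lines are group means. Egr1 is the gene whose azoramide libraries (50.8 to 76.2 CPM) all lie above its DMSO libraries (17.8 to 34.5 CPM); Fos, Nr4a1 and Nr4a2 have 1 control DMSO library far above the other two.

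Fos, Fosb, Jun and Junb encode subunits of AP-1, the dimeric factor in which a FOS protein pairs with a JUN protein. Fos stood at 22.7, 27.6 and 18.7 CPM in labelled-knockout islets with azoramide, against 9.85 and 11.8 CPM with DMSO. Control islets had 23.5, 25.3 and 21.5 CPM with azoramide, against 13.5, 24.6 and 8.21 CPM with DMSO. The azoramide libraries of the genotypes overlapped, and control DMSO library 2 (24.6 CPM) lay among them rather than with the other DMSO libraries. The log2 difference was 1.09 in labelled-knockout islets (SE 0.41, edgeR adjusted p = 0.0716) and 0.59 in control islets (SE 0.35, adjusted p = 0.234). Neither passed the test, although the 95% interval in labelled-knockout islets, 0.13 to 2.04, did not reach 0.

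Fosb, which encodes another FOS protein, was read at only 14 to 43 counts a library. Its log2 differences of 0.46 in labelled-knockout (SE 0.50) and 0.28 in control islets (SE 0.44) had wide intervals, -0.59 to 1.505 and -0.66 to 1.21. Junb, which encodes a JUN protein with weaker activating capacity than JUN, stood at 63.1, 72.4 and 53.7 CPM in labelled-knockout islets with azoramide, against 50.9 and 49.8 CPM with DMSO. Control islets held 60.8, 74.9 and 60.6 CPM with azoramide, against 53.9, 70.1 and 50.9 CPM with DMSO. The groups were separate in labelled-knockout islets and overlapped in control islets. Its log2 difference was 0.32 in labelled-knockout (SE 0.16, edgeR adjusted p = 0.137) and 0.16 in control islets (SE 0.14, adjusted p = 0.402). Jun overlapped in both, at 33.6 to 42.3 CPM with azoramide against 32.5 to 33.8 CPM with DMSO in labelled-knockout islets and 36.1 to 48.6 against 35.4 to 42.0 CPM in control islets. Its differences were 0.23 (SE 0.13, interval -0.03 to 0.50) and 0.21 (SE 0.11, interval -0.03 to 0.44), the smallest of the members in labelled-knockout islets.

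Ier2, a short single-exon gene whose nuclear product is induced by growth factors, stood at 17.7, 20.5 and 13.3 CPM in labelled-knockout islets with azoramide, against 10.8 and 11.1 CPM with DMSO. In control islets the values were 16.2, 17.3 and 13.5 CPM with azoramide, against 12.5, 18.0 and 9.76 CPM with DMSO. The groups were separate in labelled-knockout islets, and control DMSO library 2 was the highest library of its genotype. The log2 difference was 0.65 in labelled-knockout islets (SE 0.24, edgeR adjusted p = 0.0515) and 0.22 in control islets (SE 0.21, adjusted p = 0.451).

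Nr4a1 and Nr4a2 encode NUR77 and NURR1, orphan nuclear receptors that act as constitutive transcription factors set by their own abundance. Nr4a2 stood at 47.7, 49.9 and 42.1 CPM in labelled-knockout islets with azoramide, against 29.5 and 30.3 CPM with DMSO. In control islets the same gene had 30.0, 35.2 and 36.6 CPM with azoramide, against 33.8, 51.7 and 18.4 CPM with DMSO. The control DMSO libraries alone spanned the whole range seen in the study, on both sides of the control azoramide libraries. The log2 difference was 0.64 in labelled-knockout islets (SE 0.36, interval -0.21 to 1.48, edgeR adjusted p = 0.209) and -0.03 in control islets (SE 0.32, interval -0.78 to 0.72, adjusted p = 0.950). Nr4a1 followed the same pattern at a lower level. It stood at 28.1, 29.2 and 26.1 CPM in labelled-knockout islets with azoramide, against 22.6 and 21.8 CPM with DMSO. Control islets showed 20.5, 25.9 and 25.2 CPM with azoramide, against 22.0, 33.3 and 15.6 CPM with DMSO. Azoramide libraries were higher without overlap in labelled-knockout islets (log2 difference 0.33, SE 0.26, adjusted p = 0.359), and in control islets the groups overlapped (0.01, SE 0.23, adjusted p = 0.980).

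Dusp1 encodes MKP-1, a nuclear phosphatase that inactivates p38, JNK and ERK and so ends the signal that induced it. It stood at 32.1, 36.4 and 31.7 CPM in labelled-knockout islets with azoramide, against 24.2 and 27.5 CPM with DMSO. In control islets it stood at 29.8, 34.5 and 36.3 CPM with azoramide, against 31.1, 35.8 and 24.3 CPM with DMSO. The groups were separate in labelled-knockout islets and overlapped in control islets. It rose by 0.37 on the log2 scale in labelled-knockout islets (SE 0.14, interval 0.08 to 0.66, edgeR adjusted p = 0.0429). In control islets the difference was 0.14 (SE 0.12, interval -0.12 to 0.40, adjusted p = 0.393). The call in labelled-knockout islets was lost in 7 of the 20 alternatives, with plain library totals among them (0.22, adjusted p = 0.220), a scaling that lowers the median of all genes to -0.16. The other 6 each left out a library: labelled-knockout azoramide library 1 or 2, either labelled-knockout DMSO library, control azoramide library 2 or control DMSO library 1.

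**Figure D2:**
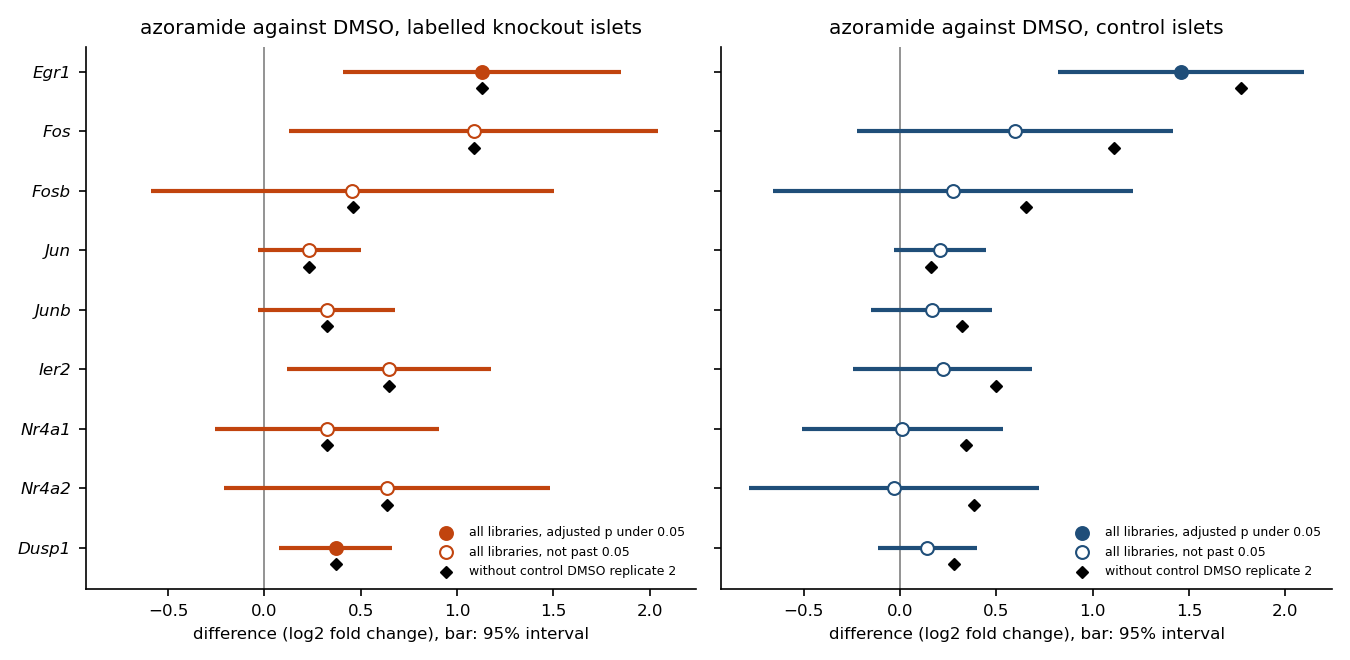
Log2 difference of azoramide against DMSO for the 9 tested genes in labelled-knockout (left) and control (right) islets. Circles are the values with all libraries, filled where adjusted p was under 0.05, with bars for the 95% interval; diamonds are the values without control DMSO library 2. Leaving out that library moved Fos in control islets to 1.11, beside 0.59 with all libraries, and hardly moved any value in labelled-knockout islets.

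Control DMSO library 2 decided several of these values. Without it, 5 of the 9 members rose in control islets (19.7% of all genes rose in that fit). Fos then differed by 1.11 (SE 0.21, edgeR adjusted p = 0.00148), Ier2 by 0.50 (SE 0.17, adjusted p = 0.0261), Nr4a1 by 0.34 (SE 0.13, adjusted p = 0.0444) and Junb by 0.32 (SE 0.12, adjusted p = 0.0485). Egr1 was at 1.77 (SE 0.25, adjusted p = 0.0013). Nr4a2 changed sign to 0.38 (SE 0.23, adjusted p = 0.246). In labelled-knockout islets, whose libraries were all kept, the fold changes stayed where they were, and the smaller spread took 6 of 9 past the threshold (21.7% of all genes): Egr1, Fos, Ier2, Dusp1, Junb and Nr4a1. Fos was then at 1.09 (SE 0.21, adjusted p = 0.00137). With labelled-knockout azoramide library 3 left out too, 7 of 9 rose in labelled-knockout islets (23.4% of all genes) and 6 of 9 in control islets (21.2%). Members were mostly above their group mean in control DMSO library 2 (mean 0.45) and mostly below it in labelled-knockout azoramide library 3 (-0.21). Leaving out a high DMSO or a low azoramide library raises most members' azoramide difference in that genotype by itself. The higher counts are therefore no independent support for a rise. Without control DMSO library 3 instead, the control count stayed at 1 (2557 of 15025 genes rose), Nr4a1 was at -0.21 and Nr4a2 at -0.34. Both settings leave the control DMSO group with 2 libraries. The count of 2 in labelled-knockout islets was 5 without control DMSO library 3 (3137 of 15025 genes rose) and 3 without labelled-knockout azoramide library 3 (3127 of 15031). It was 1 without labelled-knockout azoramide library 1 (2552 of 15007), control azoramide library 2 (2923 of 15026) or control DMSO library 1 (2924 of 15039). It was 0 without labelled-knockout azoramide library 2 (2540 of 15015). Without control azoramide library 1 the count in control islets was 2 (2572 of 15046).

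Whether the genotype label changed the response was asked by the interaction, the azoramide difference in labelled-knockout minus that in control islets. It was called for none of the 9 members and for none of the 15093 genes (edgeR adjusted p = 0.999 for each member; 563 genes, 3.73%, but no member, had an unadjusted p under 0.05, and the DESeq2 Wald test called 0). It was positive for 8 of 9 members, with a median of 0.23. Nr4a2 had the largest value, 0.67 (SE 0.48, interval -0.46 to 1.80), and Egr1 was negative, -0.33 (SE 0.41, interval -1.27 to 0.62). Without control DMSO library 2 the interaction of Fos moved to -0.02 (SE 0.29), beside 0.49 (SE 0.54) with all libraries. That of Nr4a1 moved to -0.02 (SE 0.18), beside 0.32 (SE 0.34).

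Between genotypes no member passed the test in either treatment, and none had an unadjusted p under 0.05. With azoramide, the labelled-knockout against control differences ran from -0.17 for Jun to 0.46 for Nr4a2, 4 of 9 were positive, and the smallest edgeR adjusted p was 0.968. No gene of the 15093 was called, and 754 (5%) had an unadjusted p under 0.05; the DESeq2 Wald test called 2. Nr4a1 and Nr4a2 were higher without overlap (5.57% of all genes were). Nr4a2 held 42.1 to 49.9 CPM in labelled-knockout islets and 30.0 to 36.6 CPM in control islets (log2 difference 0.46, SE 0.32, interval -0.29 to 1.20, adjusted p = 0.968). Nr4a1 held 26.1 to 29.2 CPM in labelled-knockout islets and 20.5 to 25.9 CPM in control islets (0.22, SE 0.23, interval -0.30 to 0.74, adjusted p = 0.979).

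With DMSO, 8 of the 9 differences between labelled-knockout and control islets were negative, with a median of -0.21 beside -0.0034 over all genes. None passed the test (edgeR adjusted p = 0.999 for each). No gene was called, and 531 (3.52%) had an unadjusted p under 0.05; the DESeq2 Wald test called 3. Jun and Junb were lower without overlap (9.57% of all genes were). Jun stood at 32.5 and 33.8 CPM in labelled-knockout islets, against 42.0, 35.4 and 36.4 CPM in control islets. Junb had 49.8 and 50.9 CPM in labelled-knockout islets and 50.9 to 70.1 CPM in control islets, groups that did not overlap but nearly touched. Fos had the most negative value, -0.52 (SE 0.41, interval -1.48 to 0.45), and Egr1 the single positive one, 0.19 (SE 0.31, interval -0.53 to 0.91). Without control DMSO library 2 the signs of Fosb (0.26), Nr4a1 (0.24) and Nr4a2 (0.20) turned. Fos was then at -0.0007 (SE 0.24), Ier2 at -0.02 (SE 0.19), Junb at -0.06 and Dusp1 at -0.10. Jun was at -0.24 and Egr1 at 0.50. Most of the negative values thus leaned on that library. The DMSO groups enter this comparison and the azoramide differences alike, so a high control DMSO library lowers both.

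**Figure D3:**
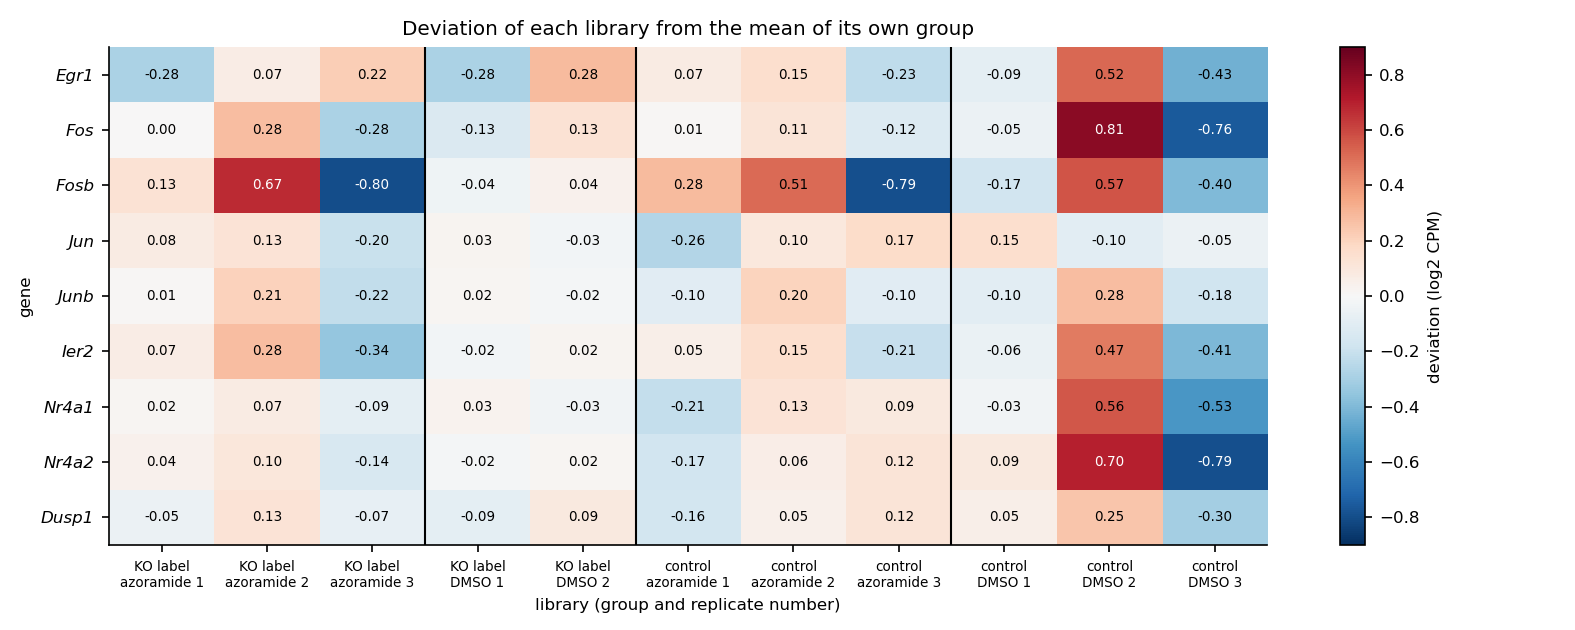
Deviation of each library from the mean of its own group, in log2 CPM, for the 9 tested genes (rows) and 11 libraries (columns, parted by group). In control DMSO library 2 the values are above 0 for every gene except Jun, up to 0.81 for Fos, and in control DMSO library 3 they are below 0 for every gene, down to -0.79 for Nr4a2.

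Within groups the members moved together from library to library, as the map of deviations shows. The mean deviation over the 9 members was 0.45 in control DMSO library 2 and -0.43 in control DMSO library 3. In labelled-knockout azoramide library 2 all 9 members were above their group mean (mean 0.21), and in library 3 of that group 8 of 9 were below (mean -0.21), Egr1 being the exception. In control azoramide library 2 all 9 were above (mean 0.16). The libraries labelled knockout with DMSO differed least, by 0.057 on either side. Acinar markers, all 10 of which were in the table and none at 0 throughout, were highest in the library with the highest members' mean in each of the groups of 3. Their sum was 6334 CPM in labelled-knockout azoramide library 2, 3245 CPM in library 1 and 1083 CPM in library 3. It was 4924 CPM in control azoramide library 2, beside 1889 and 3386 CPM, and 5278 CPM in control DMSO library 2, beside 1355 and 939 CPM. In labelled-knockout islets with DMSO it was 2381 CPM in library 1, where 6 of 9 members were below the mean, and 615 CPM in library 2. Over whole groups it overlapped between treatments in both genotypes. The part of acinar cells in these values was not tested.

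Over the 11 libraries, each member's deviations were set against the mean deviations of the other 8, as a description in which all genes share the same libraries. Fos followed the others most closely (Pearson r = 0.97, Spearman rho = 0.92), then Ier2 (0.95 and 0.92) and Junb (0.89 and 0.89). These values were 0.94, 0.90 and 0.92 by Pearson without control DMSO libraries 2 and 3. Nr4a1 (r = 0.86), Nr4a2 (0.85) and Dusp1 (0.81) dropped to 0.44, 0.48 and 0.44 without those libraries. Fosb (r = 0.64, rho = 0.75) was at 0.68 without them. Egr1 (r = 0.62, rho = 0.43) was at 0.02 without them. Jun had the lowest value with all libraries (r = 0.10, rho = 0.08) and was at 0.36 without those 2. Of the 36 pairs of members 35 had a positive r, with a median of 0.68. The closest pair was Nr4a1 with Nr4a2 (r = 0.98), and the single negative pair was Egr1 with Jun (r = -0.37). The pair values include control DMSO libraries 2 and 3 and were not computed without them. Egr1, the gene with the largest azoramide difference, was therefore among the least tied to the others within groups.

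Among 11615 genes with a mean log2 CPM of at least 1, those most like the members' mean deviation over the 11 libraries were Ext1 (r = 0.98), Tubb5 (0.98), Ets2 (0.98), Rps2 (0.98) and Tle4 (0.97). Without control DMSO libraries 2 and 3 they kept r of 0.94, 0.95, 0.97, 0.91 and 0.90. Some other early response genes ranked close behind, while others were spread over the whole ranking. The AP-1 subunits Fosl2 and Fosl1 were at rank 10 and 12, the kinase gene Sik1 at rank 16, Csrnp1 at rank 25 and Ier3 at rank 39. Farther down were Rgs2 at rank 1396, Klf6 at rank 3233 and Homer1 at rank 6284. At the far end of the wider list Gadd45b (r = -0.90), Irf1 (-0.86) and Ccn2 (-0.69) ran against the members. These ranks describe the same 11 libraries and carry no test.

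A wider list of 43 tested early response genes moved in both directions with azoramide. In labelled-knockout islets 7 rose and 7 fell, with a median log2 difference of 0.17; in control islets 4 rose and 6 fell, with a median of -0.06. Over all genes 20% rose and 19.8% fell in labelled-knockout islets, and 19.3% rose and 19.8% fell in control islets. Rgs2, which encodes a brake on Gq signalling, stood at 63.0 ± 16.4 CPM with azoramide and 20.3 ± 1.2 CPM with DMSO in labelled-knockout islets (SD, n = 3 and n = 2), and at 45.5 ± 2.3 and 24.3 ± 3.5 CPM in control islets (n = 3 each). It rose by 1.63 (SE 0.21, edgeR adjusted p = 0.000186) and 0.90 (SE 0.18, adjusted p = 0.00295). Maff, a small MAF transcription factor gene, rose by 1.13 in labelled-knockout (SE 0.16) and 0.44 in control islets (SE 0.14). The call of Maff in control islets was lost without control azoramide library 2 (0.31) or control DMSO library 3 (0.32) and with plain totals (0.28). Kdm6b, a histone demethylase gene, fell by 0.75 in both (SE 0.10 and 0.09), and Ier5 fell by 0.56 (SE 0.11) and 0.38 (SE 0.10). With an offset for gene length and GC content Kdm6b was at -0.22 in labelled-knockout islets, no longer past the threshold (edgeR adjusted p = 0.0622), and at -0.28 in control islets, still past it. The same test without control DMSO library 2 called 11 rising and 7 falling in labelled-knockout islets and 7 and 6 in control islets. Of 15011 genes tested then, 3264 rose and 3243 fell in labelled-knockout islets, and 2963 and 3053 in control islets.

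**Figure D4:**
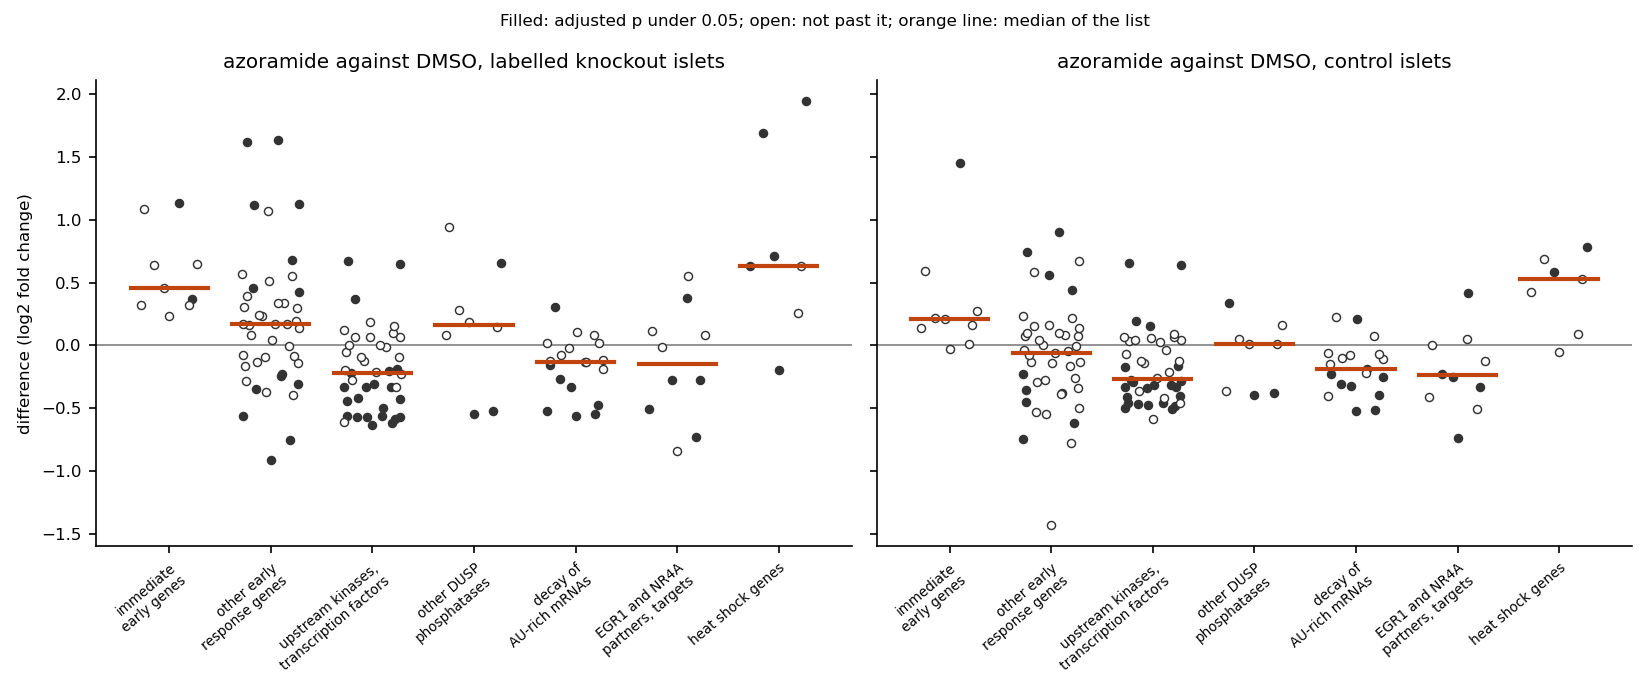
Log2 difference of azoramide against DMSO for the 9 tested immediate early genes and 6 lists of related genes, in labelled-knockout (left) and control (right) islets. Each point is a gene, filled where adjusted p was under 0.05, and the line is the list's median: 0.46 and 0.21 for the immediate early genes, -0.22 and -0.27 for the kinases and transcription factors upstream of them.

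Of 42 tested kinases, calcium sensors and transcription factors that act upstream of the members, 3 rose and 19 fell in labelled-knockout islets and 4 rose and 19 fell in control islets, with medians of -0.22 and -0.27. The shares over all genes were 20% rising and 19.8% falling in labelled-knockout islets, and 19.3% and 19.8% in control islets. Calm2, which encodes the calcium sensor calmodulin, rose by 0.67 in labelled-knockout (SE 0.07) and 0.65 in control islets (SE 0.06). The histone acetyltransferase gene Ep300 fell by 0.56 (SE 0.06) and 0.48 (SE 0.06), and Crtc1, a CREB coactivator gene, by 0.64 (SE 0.07) and 0.50 (SE 0.07). With an offset that removes the trends on length and GC content together, 6 rose and 8 fell in labelled-knockout islets and 5 rose and 7 fell in control islets, and Calm2 was at 0.0002 and 0.06. In that fit 1974 of 15093 genes rose and 1639 fell in labelled-knockout islets, and 1965 rose and 1443 fell in control islets. Crtc1 was then at -0.12 in labelled-knockout and -0.03 in control islets, past the threshold in neither. Ep300 was at -0.21, still past it, in labelled-knockout islets and at -0.14, no longer past it, in control islets.

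Of 8 other dual-specificity phosphatase genes tested, 1 rose and 2 fell in each genotype. These counts are near the shares over all genes (20% rose and 19.8% fell in labelled-knockout islets, 19.3% and 19.8% in control islets). Dusp10, whose product acts on p38 and JNK, rose by 0.66 in labelled-knockout (SE 0.14) and 0.34 in control islets (SE 0.12). Dusp8 fell by 0.52 (SE 0.10) and 0.38 (SE 0.09), and Dusp7 fell by 0.54 (SE 0.13) and 0.40 (SE 0.12). Dusp6, a cytoplasmic ERK phosphatase gene, was at 0.19 (SE 0.13) and 0.01 (SE 0.12), neither past the threshold. With the length and GC offset 1 rose in labelled-knockout islets (1974 of 15093 genes rose) and no call was left in control islets. Dusp8 was then at -0.12 and -0.04, and Dusp7 at -0.32 and -0.24. The call of Dusp10 in control islets was also lost without either labelled-knockout DMSO library, either of control azoramide libraries 2 and 3, or either of control DMSO libraries 1 and 3, at values of 0.24 to 0.38. That of Dusp7 was lost without control azoramide library 3 (-0.34) or control DMSO library 1 (-0.31).

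Immediate early mRNAs are known to be degraded through AU-rich elements. Of 19 genes of that decay machinery 1 rose and 7 fell in labelled-knockout islets and 1 rose and 8 fell in control islets, with medians of -0.13 and -0.19. Of all genes 20% rose and 19.8% fell in labelled-knockout islets, and 19.3% and 19.8% in control islets. Cnot3, a subunit of the deadenylase complex, fell by 0.56 (SE 0.08) and 0.52 (SE 0.08), and Pan2, a deadenylase, by 0.47 (SE 0.08) and 0.52 (SE 0.08). Khsrp, an AU-rich element binding protein, fell by 0.52 (SE 0.09) and 0.40 (SE 0.08), and Zfp36l2, a zinc-finger protein that recruits the deadenylases, by 0.54 (SE 0.09) and 0.32 (SE 0.08). With the length and GC offset 6 fell in each genotype (1639 of 15093 genes fell in labelled-knockout and 1443 in control islets). The calls of Pan2 (-0.21) and Khsrp (-0.21) in labelled-knockout islets and of Khsrp (-0.14) and Zfp36l2 (-0.22) in control islets were then lost. Cnot3 stayed past the threshold in both, at -0.36 and -0.32.

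Among 10 tested genes listed as partners and targets of EGR1 and NR4A, 1 rose and 4 fell in each genotype. The background was 20% rising and 19.8% falling in labelled-knockout islets, and 19.3% and 19.8% in control islets. Rxra and Rxrb encode retinoid X receptors, with which NR4A proteins pair. Rxra fell by 0.51 in labelled-knockout (SE 0.12) and 0.33 in control islets (SE 0.11), and Rxrb by 0.28 (SE 0.08) and 0.23 (SE 0.07). Mafa, a transcription factor of mature beta cells, fell by 0.73 (SE 0.20) and 0.74 (SE 0.18). With the length and GC offset none of these 4 falls was called in either genotype, and Rxrb was at 0.14 and 0.12. In labelled-knockout islets the call of Mafa was lost without either labelled-knockout DMSO library (-0.68 and -0.77) and with the replicate block (-0.73, edgeR adjusted p = 0.0632), and that of Rxrb without DMSO library 2 (-0.27). In control islets the call of Rxra was lost without azoramide library 1 (-0.22) or 3 (-0.31) of that genotype or its DMSO library 3 (-0.21), that of Rxrb without control azoramide library 3 (-0.22) and that of Mafa without control DMSO library 3 (-0.68).

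Heat shock genes, which tissue handling is known to raise along with immediate early genes, were measured beside them. Of 7 tested, 4 rose and 1 fell in labelled-knockout islets (20% and 19.8% of all genes) and 2 rose in control islets (19.3%). Hspa8, the constitutive HSP70 gene, rose by 0.72 (SE 0.09) and 0.78 (SE 0.08), and Hsp90aa1 by 0.63 (SE 0.07) and 0.58 (SE 0.06). The inducible genes Hspa1a and Hspa1b rose in labelled-knockout islets, by 1.69 (SE 0.44) and 1.95 (SE 0.53). In control islets they were at 0.53 (SE 0.37) and 0.69 (SE 0.44), not past the threshold. The call of Hspa1a was lost without either labelled-knockout DMSO library (1.53 and 1.88) and that of Hspa1b without DMSO library 2 (1.45). Without both libraries that stood apart neither was called (1.63 and 1.86, edgeR adjusted p = 0.0733 and 0.0849). Hspa1b was also lost with the replicate block (1.95, adjusted p = 0.0592) and with block and offset (2.13, adjusted p = 0.0633). Hspa1a and Hspa1b are near-identical copies whose reads the counting may have split. Whether handling differed between groups was not tested.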

How the data were processed

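The deposited values are raw counts of reads for each gene, unnormalized whole numbers, in a table with a column for each of 11 islet libraries. Alignment with STAR 2.7.2a to mm10 and DESeq2 are named in the submitters' processing notes; no source used here gives the counting tool, annotation or strand setting. Groups and replicate numbers came from the sample titles.

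Counts were tested in R 4.3.3 with edgeR 4.0.16 (robust quasi-likelihood test, TMM scaling, filter on low counts by group) in 1 fit of 4 groups. P-values were adjusted by Benjamini-Hochberg over 15093 genes, with a threshold of 0.05. P-values set each difference against the spread between samples, each drawn from at least 3 mice. The main fit takes no pairing of samples into account. The procedure was also run on simulated counts in which far fewer genes changed than were called for azoramide here. No result rests on that run. DESeq2 1.42.0 was an alternative, beside other scalings, no filter, a length and GC offset, a replicate block and leaving out libraries. Deviations used log2 CPM with a prior count of 2. Exonic lengths came from GENCODE M21. Correlations are descriptions.

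The 10 genes and the 6 related lists were chosen with earlier results of these data known. Named beyond the members were Zzef1, up to 4 genes per list with the smallest p for azoramide, and the 5 genes most like the members' mean deviation. Some genes that this rule names are not reported here. The promoters of Egr1, Egr3 and Ier2 were not used here.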

Additional observations from a re-analysis of the deposited data

How the results depend on the processing

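Egr1 in control islets was called under all 20 alternatives. In labelled-knockout islets all 9 tested members stayed positive under all 20; over these 180 values 30 gained a call and 10 lost one. In control islets 12 gained a call, none lost one and 12 changed sign. Causes were not tested. The labels do not say that a replicate number marks shared mice or a shared batch. Deviations of same-numbered azoramide and DMSO samples correlated at 0.198, 0.27 and 0.052 in control islets. Of the control DMSO samples, that of its own number correlated best with each control azoramide sample. Control DMSO sample 3, however, correlated best with azoramide sample 1 (0.147). Samples of different genotypes, which share no mice, reached higher values. These were 0.46 for labelled-knockout azoramide 3 with control azoramide 1 and 0.358 for labelled-knockout azoramide 2 with control DMSO 2. The correlations therefore neither show nor exclude pairing. In labelled-knockout islets the same-numbered values were 0.156 and -0.422, but the 2 DMSO samples deviate as mirror images, so these say little about pairing.

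Against 2 members called in labelled-knockout islets, other settings gave the counts below, each call being a rise. In brackets is the share or number of all genes that rose in the same fit. The count was 1 with plain library totals (12.4%), 4 with the DESeq2 Wald test (20.1%) and 7 with only the groups compared in the fit (21.1%). It was 4 with the length and GC offset (13.1%), 5 with the replicate block (20.1%) and 5 with block and offset (2099 of 15093). DESeq2 size factors gave 3 (3063 of 15093), and leaving out both libraries that stood apart gave 7 (23.4%). That last setting drops a DMSO library high for the members and an azoramide library low for them, which by itself favours rises. Against 1 in control islets the count was 2 with the replicate block (19.1%), 2 with block and offset (1973 of 15093) and 6 without both libraries (21.2%). Leaving out each library in turn, other than the labelled-knockout DMSO libraries, gave 0 to 6 and 1 to 5. None was called in labelled-knockout islets without labelled-knockout azoramide library 2. Leaving out a labelled-knockout DMSO library leaves a lone sample assumed to vary like the other groups, so no count is given for it.

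Over all genes 6006 and 5893 calls (labelled-knockout, control) became 3613 and 3408 with the offset and 3951 and 3469 with block and offset. Plain totals put the median of all genes at -0.16 and -0.19 and gave 1866 rising and 4542 falling in labelled-knockout islets, beside 3014 and 2992 with TMM, and 1628 and 4943 in control islets, beside 2908 and 2985. Against 0 between genotypes with azoramide, 2 genes were called by DESeq2 and 84 without both libraries (0 to 3 leaving out each). With DMSO it was 3 by DESeq2, 2 with no filter, 1 with the block, 1 with block and offset and 2 without both libraries (0 to 3 leaving out each). The interaction had 6 without both libraries (0 to 1 leaving out each).

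Signs of azoramide differences turned in control islets for Nr4a1 (-0.15), Dusp1 (-0.023) and Dusp6 (-0.15) with plain totals, for Nr4a2 with the replicate block (0.039), block and offset (0.0012) and without both libraries (0.38), and with the offset or block and offset for Dusp6 (-0.095, -0.094) and Rxrb (0.12, 0.12). In labelled-knockout islets they turned for Rxrb with the same settings (0.14, 0.16) and for Calm2 with block and offset (-0.016). Leaving out each library gave -0.0011 to 0.65 for Fosb, -0.21 to 0.34 for Nr4a1, -0.34 to 0.38 for Nr4a2 and -0.10 to 0.11 for Dusp6 in control islets.

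Between genotypes with azoramide, Fos was at 0.019 with plain totals, 0.013 with the offset and 0.10 without both libraries. Junb was at 0.0012 with the offset and 0.050 without both, and Dusp1 at 0.036 with plain totals, 0.013 with the offset, 0.0086 with block and offset and 0.030 without both. Leaving out each library gave -0.18 to 0.11 for Fos, -0.34 to 0.38 for Fosb, -0.16 to 0.056 for Junb, -0.017 to 0.28 for Ier2 and -0.092 to 0.054 for Dusp1. With DMSO, Fosb (0.26), Nr4a1 (0.24) and Nr4a2 (0.20) turned without both libraries. Leaving out each gave -0.13 to 0.50 for Egr1, -0.32 to 0.26 for Fosb, -0.32 to 0.24 for Nr4a1 and -0.52 to 0.20 for Nr4a2. For the interaction it gave -0.023 to 0.79 for Fos, -0.22 to 0.50 for Fosb, -0.10 to 0.12 for Jun and -0.017 to 0.54 for Nr4a1.

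Depth limits Egr3 and Fosb. Egr3 was tested only with no filter or with a labelled-knockout DMSO library left out. With no filter it was not called for azoramide in either genotype. All 10 members were then positive in labelled-knockout islets and 8 of 10 in control islets.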

Other observations

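The other genes of the wider early response list that passed the threshold, shown here after their values were seen, were these. Crem, which encodes a cAMP-responsive transcription factor, rose in both genotypes, by 1.12 in labelled-knockout islets (SE 0.28) and 0.74 in control islets (SE 0.24). Gem, a small GTPase gene that restrains calcium channels, was at 1.62 (SE 0.47, past the threshold) in labelled-knockout and 0.67 (SE 0.41, not past it) in control islets. Ier3 was at 0.68 in labelled-knockout (SE 0.14) and 0.22 in control islets (SE 0.12), Tiparp at 0.46 (SE 0.12) and 0.10 (SE 0.10), and Csrnp1 at 0.43 (SE 0.16) and 0.14 (SE 0.14), each past the threshold in labelled-knockout islets. Sertad1 was at 0.39 in labelled-knockout (SE 0.16) and 0.56 in control islets (SE 0.15), past it in control islets. Ccn2, a matricellular protein gene, fell by 0.91 (SE 0.25) and 0.62 (SE 0.23), and the clock gene Per1 fell by 0.24 (SE 0.09) and 0.35 (SE 0.08). Jund, Rhob and Btg2 fell in labelled-knockout islets, and Myc and Btg1 in control islets. None of these genes had an interaction past the threshold, so no difference between genotypes in their response was shown.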
